A study of Mus musculus with 3 samples.

Results

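The proteasome genes of mouse blood monocytes were taken as every gene whose symbol is Psm followed by a letter from a to g and a digit and that has at least 1 transcript annotated as protein coding. The rule gave 50 of the 55536 genes in the tables. Of these, 49 encode proteasome subunits, activators, inhibitors or assembly chaperones, and 1, Psmc3ip, named as an interactor of the Psmc3 protein, is a recombination factor of meiosis and no subunit. RNA had been purified from peripheral-blood monocytes of C57BL/6J mice aged 5 to 6 weeks, depleted of ribosomal RNA and sequenced in 3 libraries, called libraries 1, 2 and 3 after their replicate numbers. All 3 belong to 1 group with 1 donor record, so the series holds no contrast between conditions, and every p-value below reflects only how far these libraries differ, part of which may be technical. Of the 3 interferon-inducible catalytic genes, Psmb8 exceeded its standard counterpart about 10.2-fold in gene-level abundance, whereas Psmb9 and Psmb10 did not exceed theirs in any library.

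The proteasome is the protease that degrades ubiquitin-tagged proteins in the cytosol and nucleus. Its barrel-shaped core is built of outer rings of alpha subunits, which gate the entrance, and inner rings of beta subunits, of which only the catalytic ones cut peptide bonds, each with an amino-terminal threonine. A regulatory particle made of ATPases and non-ATPase subunits binds, unfolds and feeds in the substrate. In leukocytes and under interferon gamma, the catalytic subunits encoded by Psmb5, Psmb6 and Psmb7 can be replaced by those of Psmb8, Psmb9 and Psmb10, which gives the immunoproteasome, known for producing peptides that MHC class I molecules present.

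Each inducible subunit resembles its standard counterpart where the mature chain begins, as their coding sequences show. The first 30 bases of the mature chain are printed below in the reading frame, from GENCODE M21 transcripts, with the codon of the catalytic threonine in capitals, each inducible subunit above its standard counterpart.
Psmb8: ACAaccacactcgccttcaagttccagcat
Psmb5: ACCaccaccctggccttcaagtttctccat
Psmb9: ACAaccatcatggcagtggagtttgacggg
Psmb6: ACCacgatcatggctgtgcagtttaatggg
Psmb10: ACTaccatcgcggggcttgtgttccgagat
Psmb7: ACTaccatcgcgggggtggtgtataaggat

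Of these 30 bases, 6 differed between Psmb8 and Psmb5, 6 between Psmb9 and Psmb6, and 7 between Psmb10 and Psmb7. Over the whole coding sequence, 68.1% of 786 aligned bases were identical between Psmb8 and Psmb5. The identity was 66.4% of 660 bases between Psmb9 and Psmb6 and 63.4% of 815 bases between Psmb10 and Psmb7. No pair reached the 95% identity over at least 50% of a transcript that was used here to mark genes between which reads could be misassigned.

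Library depth was 27.2, 26.5 and 19.9 M expected counts in libraries 1, 2 and 3, where an expected count is the authors' estimate of the reads of a gene. Levels are given in TPM, a length-corrected abundance, in which protein-coding genes held 10.9%, 9.84% and 10.7% of the total. The 10 monocyte markers summed to 2423, 2032 and 1456 TPM in libraries 1, 2 and 3, and each was detected. The libraries also carried RNA of other blood cells, and library 3 stood apart from the others in it. The 6 NK cell markers summed to 604, 504 and 1428 TPM and the 6 red cell markers to 3534, 3327 and 262 TPM in libraries 1, 2 and 3. The 6 neutrophil markers summed to 139, 125 and 9.08 TPM, with Ly6g, a defining one, at 0 throughout, and the 5 platelet markers to 15.3, 11 and 95.2 TPM. B cell markers (5 genes) summed to 80.7 to 90.6 TPM and T cell markers (6 genes) to 4.59 to 7.86 TPM. The part of these other cells in the levels below was not tested, and in such mixed RNA fewer cells of a type and less RNA per cell cannot be told apart.

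Nearly the whole proteasome was transcribed. Set against a level of 1 TPM with edgeR's quasi-likelihood test (Benjamini-Hochberg adjusted over all genes, threshold 0.05), 45 of the 48 members tested were above 1 TPM and none was below it, while 3 were not told apart from it (Psmf1, Psmg3 and Psmc3ip). In the same fit, 43.2% of all 17664 genes tested and 54.0% of the 12994 protein-coding ones were above 1 TPM, and 6.36% of all genes were below. At the higher level of 10 TPM, 23 members were above, 14 below and 11 neither; the background was 9.53% of all genes and 11.1% of protein-coding genes above, and 65.0% of all genes below. DESeq2's Wald test, run as an alternative, placed 41 members above 1 TPM, and 16 above and 6 below 10 TPM; Psmb9 and Psmb5 were among those no longer told apart from 10 TPM (adjusted p = 0.234 and 0.115). Among the 46 members with a mean of 1 TPM or more, the median level was 14.1 TPM, against 4.51 TPM for the 8302 protein-coding genes selected in the same way. Their median coefficient of variation between libraries was 18.0%, against 24.5% for those genes. All members together made up 0.685%, 0.642% and 0.633% of the protein-coding TPM of libraries 1, 2 and 3.

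**Figure D1:**
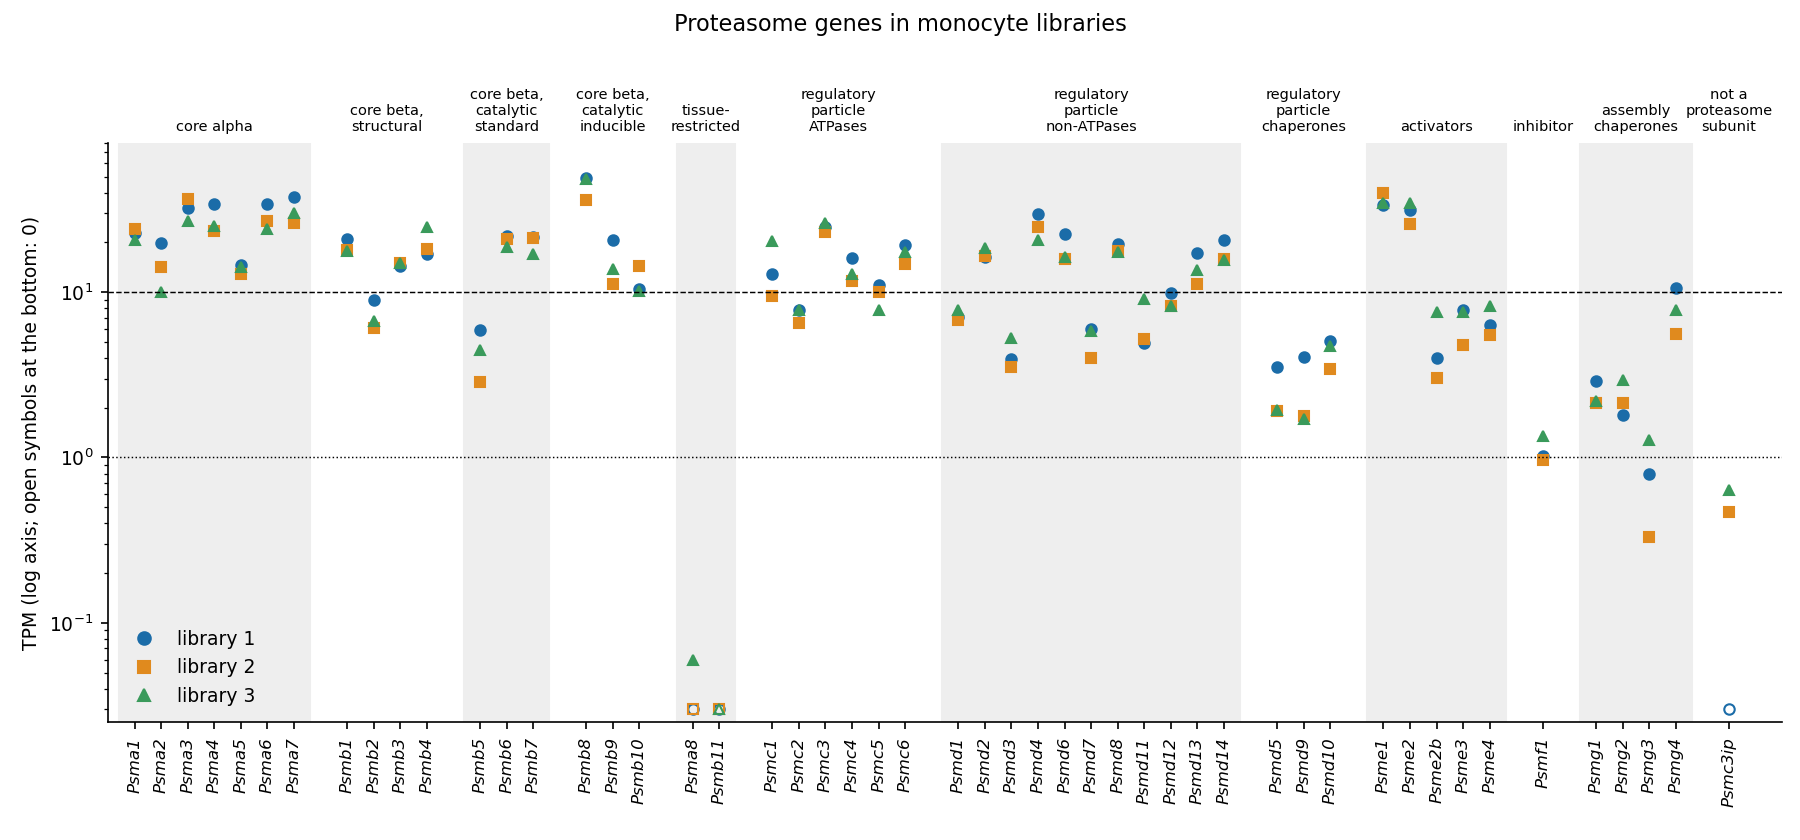
TPM (log axis) of all 50 members by role, with 1 symbol per library; dashed and dotted lines mark 10 and 1 TPM, and open symbols mark 0. Core subunits lie mostly between 10 and 50 TPM with Psmb5 and Psmb2 lower, chaperones and the inhibitor lie below 10 TPM except Psmg4 in library 1, and Psma8 and Psmb11 lie at or near 0.

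All 7 genes of the alpha ring were above 10 TPM. Their means spanned 2.30-fold with a median of 27.6 TPM. Psma3 had the highest mean, with 32.1, 36.6 and 27 TPM in libraries 1, 2 and 3. Psma7 was close to it at 31.3 ± 5.61 TPM (SD, n = 3), and Psma6 and Psma4 had 28.4 ± 5.13 and 27.6 ± 5.77 TPM (SD, n = 3). Psma5 had the lowest, with 14.6, 12.96 and 14.1 TPM, below every alpha gene but Psma2 in all 3 libraries. Psma2 varied most, with 19.9, 14.2 and 10.01 TPM, and was above 10 TPM by a mean log2 of 0.56 (edgeR adjusted p = 0.0351). Leaving out library 1 ended the calls of Psma2 and Psma5 at 10 TPM (edgeR adjusted p = 0.448 and 0.221), and so did leaving out library 2 (0.0808 and 0.0981). The level of Psma3 carries a doubt: Gm13835, a processed pseudogene, is identical to it over 79.7% of its transcript and was itself assigned 19.3, 7.21 and 13.2 TPM, so the reads of the pair may be divided arbitrarily. Of the Psma3 level, 37.3% ± 5.07 came from transcripts annotated as protein coding, 36.0% ± 11.7 from retained-intron transcripts and 26.7% ± 6.59 from transcripts annotated for nonsense-mediated decay (SD, n = 3). Its coding transcripts had 10.9, 15.8 and 9.39 TPM in libraries 1, 2 and 3, below Psma5 in libraries 1 and 3 and above it in library 2.

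The 4 structural genes of the beta ring, which hold the ring together but do not cut, had a median of 16.9 TPM. Psmb4 was highest at 17.0, 18.1 and 24.9 TPM in libraries 1, 2 and 3, followed by Psmb1 at 18.9 ± 1.73 TPM and Psmb3 at 14.8 ± 0.411 TPM (SD, n = 3). These 3 were above 10 TPM, Psmb3 no longer so without library 1 or library 2 (edgeR adjusted p = 0.111 and 0.0888). Psmb2 had 8.96, 6.06 and 6.66 TPM and was not told apart from 10 TPM (log2 -0.47, edgeR adjusted p = 0.12).

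At the catalytic positions, the inducible gene was higher than its standard counterpart at 1 of 3 sites. At the chymotrypsin-like site, the inducible Psmb8 (chromosome 17, 34197721 to 34201454, plus strand of mm10) reached 48.9, 36.3 and 48.7 TPM in libraries 1, 2 and 3, the highest gene-level mean of any member. Its standard counterpart Psmb5 (chromosome 14, 54614119 to 54618022, minus strand) had 5.93, 2.85 and 4.47 TPM, the lowest mean of the core genes of general use. Gm3375, a processed pseudogene, is 98.9% identical to Psmb5 over 88.5% of its transcript, so reads may be divided between them. Gm3375 itself was assigned 0.32, 0 and 0 TPM. The lowest Psmb8 value lay far above the highest Psmb5 value. Psmb8 was 8.13-, 12.3- and 10.7-fold higher in libraries 1, 2 and 3, a mean log2 difference of 3.35 ± 0.31 (SD, n = 3; exact sign-flip p = 0.25, and 0.25 after adjustment over the 5 pairs compared). With 3 libraries, 0.25 is the smallest p this exact two-sided test can give, so for every pair the size and the count of libraries carry the comparison. Against the fixed level, Psmb8 was above 10 TPM (log2 2.16, edgeR adjusted p = 1.77e-06) and Psmb5 below it (log2 -1.18, edgeR adjusted p = 0.0127, but 0.0569 without library 2 and 0.209 in the kallisto-format tables, a second quantification of the same libraries).

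At the caspase-like site, the inducible Psmb9 (chromosome 17, 34181987 to 34187764, minus strand) had 20.8, 11.2 and 13.8 TPM, and the standard Psmb6 (chromosome 11, 70525367 to 70527858, plus strand) had 22.0, 21.02 and 18.7 TPM in libraries 1, 2 and 3. The ranges overlapped: Psmb9 in library 1 lay above Psmb6 in library 3. Within each library Psmb9 was lower, by 1.06-, 1.88- and 1.36-fold, and the mean log2 difference was -0.48 ± 0.41 (SD, n = 3; exact sign-flip p = 0.25). In library 1 both genes were almost level, so this difference is close to the spread between libraries. Both genes were above 10 TPM, Psmb9 by a log2 of 0.61 (edgeR adjusted p = 0.0317, but 0.393 without library 1) and Psmb6 by 1.04 (edgeR adjusted p = 0.000695).

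At the trypsin-like site, the inducible Psmb10 (chromosome 8, 105935735 to 105938444, minus strand) had 10.4, 14.4 and 10.2 TPM, and the standard Psmb7 (chromosome 2, 38588036 to 38644087, minus strand) had 21.6, 21.2 and 17.0 TPM in libraries 1, 2 and 3. The groups did not overlap, with every Psmb10 value below every Psmb7 value. Psmb10 was 2.07-, 1.47- and 1.67-fold lower, a mean log2 difference of -0.78 ± 0.25 (SD, n = 3; exact sign-flip p = 0.25). Psmb10 was not told apart from 10 TPM (log2 0.22, edgeR adjusted p = 0.357), and Psmb7 was above it (log2 1.00, edgeR adjusted p = 0.000738).

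**Figure D2:**
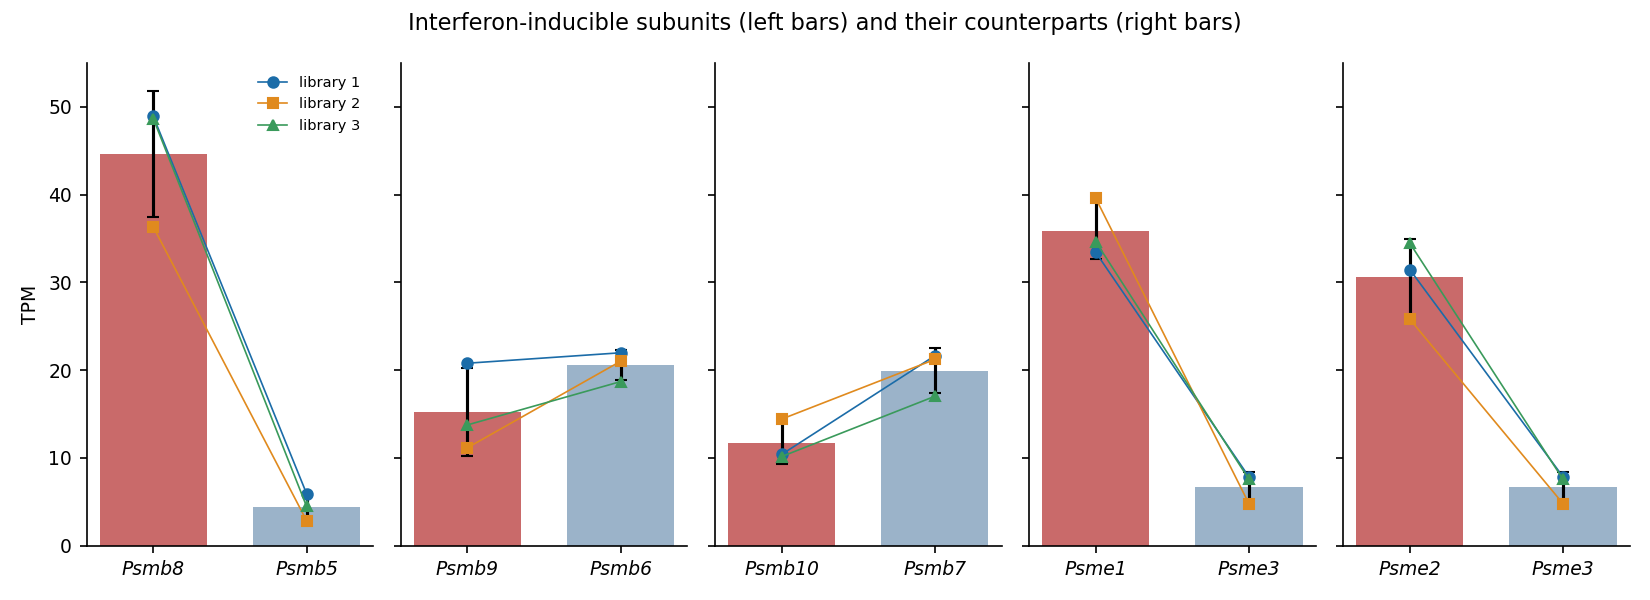
TPM of interferon-inducible genes (left bars) and the genes each was set against (right bars); bars are means of 3 libraries, error bars SD, and lines join values of 1 library. Psmb8 averaged 44.6 TPM and Psmb5 4.42 TPM, whereas Psmb9 and Psmb10 lie at or below Psmb6 and Psmb7 in each library.

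The inducible gene held most of the transcripts at the Psmb8 site and less than 50% at the other sites. Psmb8 took 91.2% ± 1.80 of the TPM of Psmb8 and Psmb5 together, Psmb9 took 41.9% ± 6.98 at its site, and Psmb10 took 36.8% ± 4.05 at its own (SD, n = 3). The shares of Psmb9 and Psmb10 differed by less than their spread: Psmb10 had the lower share in libraries 1 and 3 and the higher one in library 2, with 40.5% beside 34.7% for Psmb9. The summed level of both genes was 49.0 ± 8.60 TPM at the Psmb8 site, 35.8 ± 6.03 TPM at the Psmb9 site and 31.6 ± 4.25 TPM at the Psmb10 site (SD, n = 3). At gene level, each of these sums was higher than the mean of any structural beta gene. The sums at the Psmb8 and Psmb9 sites were at gene level also higher than the mean of any alpha gene.

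The gene level counts every transcript annotated for a gene, including those with a retained intron, which are not translated into the full subunit, and this weighed unequally on the catalytic genes. Of the Psmb8 level, 48.1%, 57.4% and 43.9% in libraries 1, 2 and 3 came from its 4 retained-intron transcripts. The most abundant of these, Psmb8-205, had 17.1, 16.6 and 17.2 TPM, beside 24.2, 14.2 and 26.8 TPM for the coding Psmb8-203. Psmb8-205 keeps intron 3 of Psmb8-203, 190 bases at chr17:34199381-34199570 (mm10, plus strand). Both of its borders are printed below from the GENCODE M21 transcript, with the intron in capitals, to show where a read tells the classes apart.
Psmb8 intron 3, first bases: cagggagttacattaGTGAGTATGTGTGCT
Psmb8 intron 3, last bases: TCAAAACTCTTCCAGgctccttaaggatga

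Retained-intron transcripts made up 38.4% ± 7.27 of the level of Psmb10 and 21.3% ± 0.861 of Psmb9 (SD, n = 3). A further 23.5% ± 17.7 of Psmb10 came from Psmb10-203, not annotated as coding, with 2.23, 6.07 and 0.71 TPM in libraries 1, 2 and 3. Of Psmb9, 15.1% ± 9.38 came from a transcript annotated for nonsense-mediated decay (SD, n = 3). Among the standard genes, retained-intron transcripts made up 35.6% ± 4.11 of Psmb6 and 3.12% ± 0.333 of Psmb7 (SD, n = 3), and Psmb5 has no annotated transcript of that class. Such a share exceeded 20% in 14 of 46 members (30.4%), against 31.7% of 8300 protein-coding genes, so high shares were about as common in both. Outside the catalytic subunits, the largest shares among members of at least 1 TPM were 52.0% ± 13.3 in Psmg2 and 50.5% ± 14.8 in Psmd6 (SD, n = 3). The kallisto-format tables reversed the order of Psmb10 and Psmb9, with retained-intron shares of 17.9% ± 5.15 and 36.7% ± 1.99 (SD, n = 3). There Psmb8 had 39.8% ± 4.62, Psmb6 29.3% ± 1.08 and Psmb7 2.10% ± 0.0841 (SD, n = 3). The shares of single genes thus depended on the quantification, and the cause was not tested.

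Counting only transcripts annotated as protein coding, an alternative chosen after seeing the data, Psmb8 had 25.4, 15.5 and 27.3 TPM and Psmb5 kept 5.93, 2.85 and 4.47 TPM in libraries 1, 2 and 3. The mean log2 difference was then 2.35 ± 0.25 (SD, n = 3), or 5.11-fold, and the Psmb8 share 83.8% ± 2.48. Psmb10 had 5.03, 2.24 and 5.08 TPM beside 20.9, 20.6 and 16.4 TPM for Psmb7, a mean log2 difference of -2.29 ± 0.77 (SD, n = 3) and a share of 17.6% ± 7.07. Psmb9 had 15.5, 6.46 and 8.01 TPM beside 14.7, 12.5 and 12.4 TPM for Psmb6, so that it was above Psmb6 in library 1 and below it in the other two, with a mean log2 difference of -0.50 ± 0.52 (SD, n = 3). Most of the coding level of Psmb9 came from Psmb9-202, a short transcript of 12.4, 4.48 and 5.90 TPM, rather than from Psmb9-204, whose coding sequence is complete, with 3.10, 1.98 and 1.94 TPM. In library 2 the Psmb10 share, above that of Psmb9 at gene level, lay below it in this count, at 9.79% beside 34.0%. Psmb8 also lost its place as the highest member: coding transcripts of Psme1 had 28.3, 26.75 and 29.0 TPM, above Psmb8 in every library. The coding sums at the Psmb8, Psmb9 and Psmb10 sites averaged 27.1, 23.2 and 23.45 TPM. None of these was above the alpha gene Psma6, whose coding transcript Psma6-201 averaged 27.9 TPM.

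**Figure D3:**
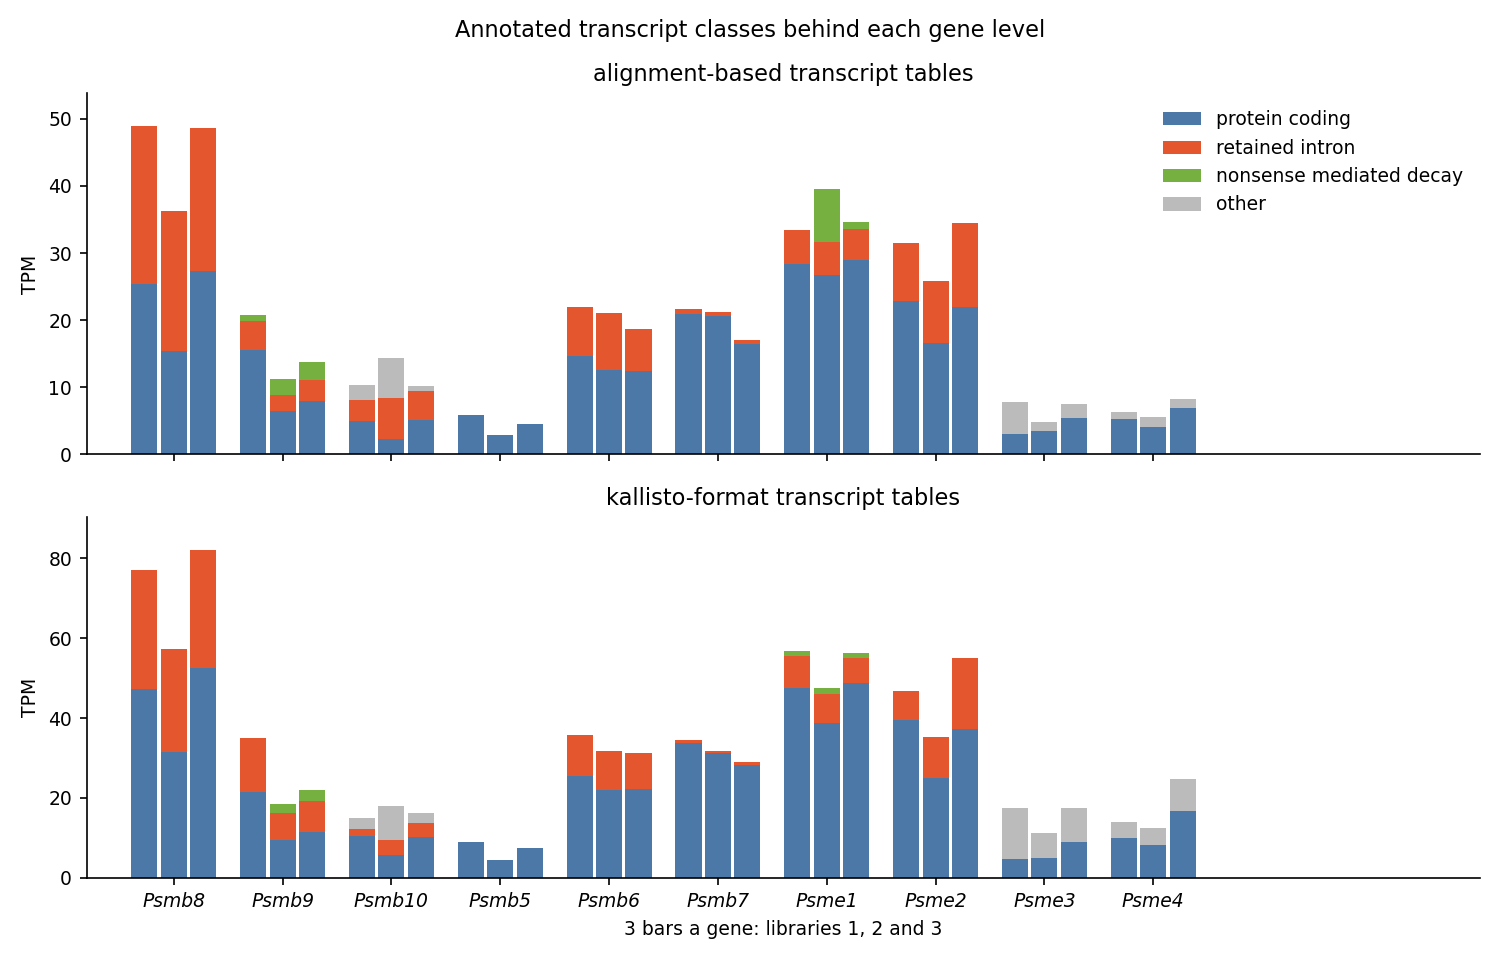
TPM of the catalytic and activator genes in libraries 1, 2 and 3 (3 bars a gene), divided by annotated transcript class, in the alignment-based (top) and kallisto-format (bottom) transcript tables. Retained-intron transcripts hold a mean of 49.8% of Psmb8 in the upper panel and none of Psmb5.

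**Figure D4:**
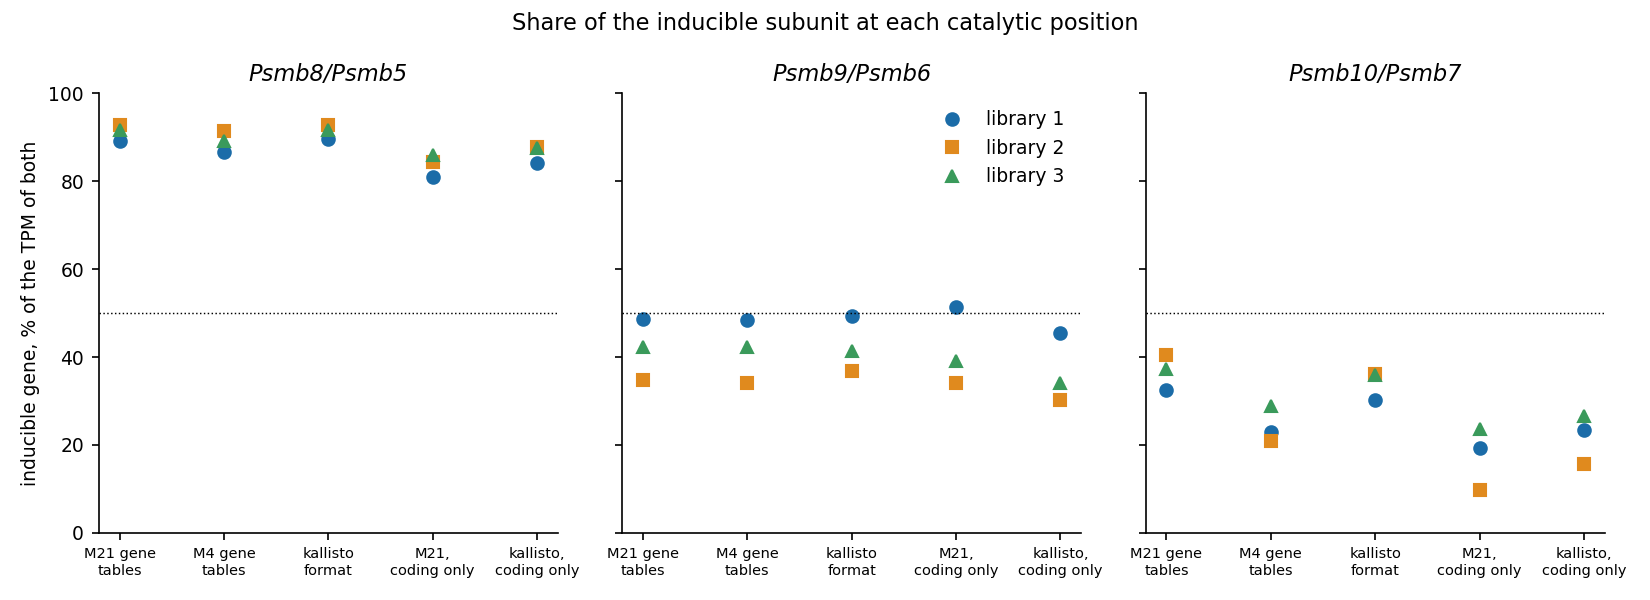
Percent of the TPM of both genes that belongs to the inducible gene at each catalytic site, by library and by table; the dotted line marks 50%. Psmb8 lies above 80% everywhere, Psmb10 lies below 50% everywhere, and Psmb9 passes 50% only in library 1 when M21 coding transcripts alone are counted (51.3%).

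Of the inducible genes, Psmb9 and Psmb8 flank Tap1, which encodes a chain of the transporter that carries proteasome products into the endoplasmic reticulum. Psmb9 and Tap1 point away from each other: RefSeq places their starts at positions 34187330 and 34187556 of chromosome 17 (GRCm38.p6), with 225 bases between. Tap1 had 15.2, 16.4 and 20.1 TPM, a range that overlapped that of Psmb9. In GENCODE M21 the 2 genes overlap by 212 bases on opposite strands, and whether the counting used strand is not given in the sources, so reads from that stretch may not be told apart.

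RefSeq promoter windows (GRCm38.p6) were available for 42 of the 50 members, in 45 windows. The 250 bases before each start were searched on both strands for 5 motifs, and a match is only a match of letters. The interferon-stimulated response element core is GAAA followed after 2 bases of any kind by GAAA. It was in 3 member windows or 6.67% (Psmb3, Psmd4 and Psmd9) and in 2.98% of all 32851 windows. None of the windows of Psmb8, Psmb9 and Psmb10 held it. The gamma-activated site TTCNNNGAA was in 2 member windows or 4.44% (Psmb8 and Psmg1) and in 7.02% of all windows. The antioxidant response element core TGACNNNGC, a binding site of NRF factors, was in 5 member windows (Psmb5, Psmb6, Psmc6, Psmd9 and Psmd12). These were 11.1% of member windows, close to the 10.2% of all windows. The CCAAT box was in 33.3% of member windows and 33.8% of all windows, and the GC box GGGCGG in 51.1% of member windows and 32.7% of all windows. The matches at catalytic genes, except a GC box of Psmb6 that lies 182 bases before its start, are printed below, each with its motif in capitals, on the strand of the gene (GRCm38.p6).
Psmb8 gamma-activated site, chr17:34198088-34198117, plus strand: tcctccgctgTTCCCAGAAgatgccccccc
Psmb9 CCAAT box (as ATTGG), chr17:34187331-34187360, minus strand: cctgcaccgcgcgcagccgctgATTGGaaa
Psmb9 GC box, chr17:34187368-34187397, minus strand: tgcgcgatgatgGGGCGGggcctcagtctg
Psmb5 antioxidant response element core, chr14:54618023-54618052, minus strand: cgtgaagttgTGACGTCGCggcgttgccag
Psmb6 antioxidant response element core, chr11:70525327-70525356, plus strand: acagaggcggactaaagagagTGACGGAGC

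The match at Psmb8 lay 97 bases before its RefSeq start, that at Psmb5 47 bases and that at Psmb6 9 bases before theirs. Both printed matches at Psmb9 lie between the RefSeq starts of Psmb9 and Tap1. GENCODE M21, used for the levels, places the Psmb8 and Psmb9 stretches inside these genes (34197721 to 34201454 and 34181987 to 34187764), not before them. The 2 catalytic genes with the antioxidant core differed in level: Psmb6 averaged 20.6 TPM and Psmb5 averaged 4.42 TPM.

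Tissue-restricted core subunits were at or near 0. Psma8, the alpha subunit of the testis proteasome, had 0, 0 and 0.06 TPM. Psmb11, the beta subunit of the thymus proteasome, had a count of 0 in every library of the gene tables. The limit that a count of 0 allows there, taken at 3 counts and for counting error only, is at most 0.0178 TPM.

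In the regulatory particle, the 6 ATPases, which unfold substrates, were all above 1 TPM, and 2 were above 10 TPM. Psmc3 was highest at 24.7, 23.2 and 26.3 TPM in libraries 1, 2 and 3, and Psmc6 followed at 17.3 ± 2.32 TPM (SD, n = 3; edgeR adjusted p at 10 TPM 0.00298, but 0.0682 without library 1). Psmc2 was lowest at 7.84, 6.55 and 7.79 TPM and was not told apart from 10 TPM (edgeR adjusted p = 0.0822), nor were Psmc1, Psmc4 and Psmc5. Under the alternatives run, this outcome changed 6 times for Psmc1, 7 times for Psmc4 and 2 times each for Psmc2 and Psmc5. The ATPases form a ring with 1 copy of each, and their transcript means spanned 3.35-fold. Psmc1 was the least even, with 12.8, 9.53 and 20.3 TPM. Its coding transcript Psmc1-201 had 11.1, 7.35 and 11.8 TPM, and Psmc1-203, not annotated as coding, had 1.01, 2.18 and 7.67 TPM in libraries 1, 2 and 3.

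The 11 non-ATPase subunits covered a wider range, 5.90-fold between means. Psmd4, a ubiquitin receptor, was highest at 29.7, 24.7 and 20.7 TPM in libraries 1, 2 and 3. Psmd14, the enzyme that removes ubiquitin chains from substrates, had 17.4 ± 2.78 TPM, and Psmd2, a scaffold of the base, had 17.2 ± 1.24 TPM (SD, n = 3). These 3, Psmd6 and Psmd8 were above 10 TPM. Psmd3 was lowest at 3.93, 3.54 and 5.25 TPM, and Psmd7, the partner of Psmd14, had 5.26 ± 1.08 TPM (SD, n = 3). Both, with Psmd11 at 6.41 ± 2.29 TPM (SD, n = 3), were below 10 TPM (edgeR adjusted p = 0.00184, 0.00933 and 0.0466 for Psmd3, Psmd7 and Psmd11). Leaving out library 2 ended the call of Psmd7 (edgeR adjusted p = 0.059), and leaving out library 1 or library 2 ended that of Psmd11 (0.246 and 0.171). Psmd6 and Psmd14 were not told apart from 10 TPM without library 1 (edgeR adjusted p = 0.0681 and 0.0778). Psmd14 and Psmd7 act as a pair, yet the ranges of their levels did not overlap. For Psmd13, at 14 ± 3.08 TPM, reads may be shared with a processed pseudogene that overlaps it on the same strand, Gm15542, assigned 15.2 TPM on average. Psmc3 overlaps Slc39a13, and Psma3 overlaps 3110056K07Rik, on the opposite strand, with means of 2.52 and 4.44 TPM for those neighbours, and the division of reads there is likewise uncertain.

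None of the assembly chaperones among the members was called above 10 TPM. The chaperones of the regulatory particle, Psmd5, Psmd9 and Psmd10, were all above 1 and below 10 TPM, Psmd9 not above 1 TPM without library 1 (edgeR adjusted p = 0.122) or in the M4 tables, made with an older annotation (0.309). Psmd10 had 5.05, 3.42 and 4.70 TPM and Psmd5 had 3.51, 1.91 and 1.93 TPM in libraries 1, 2 and 3. Of the core assembly chaperones, Psmg4 was highest with 10.6, 5.57 and 7.85 TPM and was not told apart from 10 TPM (edgeR adjusted p = 0.365). Psmg1 and Psmg2, which form a pair that helps build the alpha ring, had similar levels of 2.41 ± 0.420 and 2.30 ± 0.595 TPM (SD, n = 3), both above 1 TPM, except Psmg1 without library 1 (edgeR adjusted p = 0.072) and Psmg2 in the M4 tables (0.154). With DESeq2's Wald test neither was above 1 TPM (adjusted p = 0.223 and 0.266), nor were Psmd5 and Psmd9 (0.218 and 0.213). Psmg3 had 0.80, 0.33 and 1.27 TPM, not told apart from 1 TPM (edgeR adjusted p = 0.591), although its protein works with that of Psmg4. Psmf1, an inhibitor of the core, had 1.02, 0.96 and 1.35 TPM, also not told apart from 1 TPM (edgeR adjusted p = 0.638). The other member at this level was Psmc3ip, with 0, 0.47 and 0.64 TPM.

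Activators split in the manner of Psmb8 and Psmb5. Psme1 and Psme2 encode the chains of the interferon-inducible PA28 cap, which binds the ends of the core without ATP, while Psme3 encodes its nuclear relative and Psme4 a large cap known for work in the nucleus and in sperm. Psme1 (chromosome 14, 55578123 to 55581529, plus strand) had 33.4, 39.6 and 34.7 TPM, and Psme2 (chromosome 14, 55587441 to 55591113, minus strand) had 31.5, 25.8 and 34.5 TPM in libraries 1, 2 and 3. Psme3 had 7.84, 4.78 and 7.55 TPM, below both in every library.

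Relative to Psme3, Psme1 was 4.22-, 8.13- and 4.54-fold higher, a mean log2 difference of 2.43 ± 0.52 (SD, n = 3; exact sign-flip p = 0.25). Psme2 was 3.97-, 5.31- and 4.52-fold higher, with a mean log2 difference of 2.19 ± 0.21 (SD, n = 3; exact sign-flip p = 0.25). Psme4 had 6.29, 5.51 and 8.27 TPM, a range that overlapped that of Psme3, and was below 10 TPM (edgeR adjusted p = 0.0325, but 0.191 without library 1 and 0.167 without library 2). Psme2b had 3.97, 3.03 and 7.59 TPM, but it is a near-copy of Psme2, 99.4% identical over 94.9% of its transcript, so the division of reads between them is uncertain. Its call below 10 TPM (edgeR adjusted p = 0.0286) was lost without library 1 or 2 (0.122 and 0.104).

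Genes that work with the proteasome were set beside it from 4 lists of 42 genes, of which 41 matched the annotation. Of these, 39 were above 1 TPM and none was below (43.2% of all genes tested were above), and 18 were above and 13 below 10 TPM (9.53% and 65.0% of all genes). Among 15 further partners of the proteasome, 14 were above 1 TPM, 2 above 10 TPM and 7 below 10 TPM, so that the share above 10 TPM was near the background. The 2 above were Zfand5, a zinc finger protein that stimulates the proteasome, at 42.5, 35.2 and 49.2 TPM, and Sem1, the smallest subunit of the regulatory particle, at 35.4, 26.5 and 16.3 TPM. Pomp, which guides maturation of the core, followed with 12.7 ± 1.51 TPM (SD, n = 3), above the level of any Psmg chaperone. The ubiquilin Ubqln2 was lowest at 0.40, 0.75 and 0.86 TPM and was not told apart from 1 TPM (edgeR adjusted p = 0.204).

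All 8 regulators of proteasome genes were above 1 TPM, and 4 were above 10 TPM. Irf1, an interferon-response factor known to induce the Psmb9 and Tap1 genes, was highest at 39.7, 36.4 and 31.0 TPM in libraries 1, 2 and 3. Nfe2l2, which drives antioxidant response genes, had 20.99 ± 5.08 TPM (SD, n = 3). Nfe2l1, known to raise proteasome genes when the proteasome is inhibited, had 6.18 ± 0.50 TPM, and Ddi2, the protease that activates its product, was lowest at 3.65, 2.92 and 4.64 TPM.

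Of the 12 genes of peptide supply to MHC class I, 11 were above 1 TPM and 7 above 10 TPM. B2m, the light chain, had 475, 522 and 557 TPM, and the chaperones Calr and Canx had 115 ± 18.5 and 51.9 ± 6.72 TPM (SD, n = 3). Lap3, a peptidase that trims peptides in the cytosol, was lowest at 1.37, 0.94 and 1.85 TPM and was not told apart from 1 TPM (edgeR adjusted p = 0.223). All 6 ubiquitin genes were above 1 TPM and 5 were above 10 TPM. Ubb had 148 ± 16.8 TPM and Rps27a 112 ± 36.5 TPM (SD, n = 3). The activating enzyme Uba1 had 15.3 ± 2.49 TPM, against 2.11 ± 0.204 TPM for Uba6, the second such enzyme (SD, n = 3).

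Library 3 differed from the others in its blood cell markers and had a wider range of fragment sizes (200 to 1000 bp, against 200 to 594 and 200 to 491 bp in libraries 1 and 2). Most members were also slightly lower in it relative to the median protein-coding gene. As a share of protein-coding TPM, the members of library 3 (0.633%) were close to those of library 2 (0.642%), and library 1 (0.685%) was higher. The median protein-coding gene of at least 1 TPM was 0.27 higher (log2) in library 3 than in the mean of libraries 1 and 2, and the members are given relative to it, as a description with no test. The 46 members of at least 1 TPM had a median of -0.34, and 38 of them lay below 0. The alpha ring had a median of -0.48, with all 7 genes below 0. The inducible and standard catalytic genes had close medians, -0.49 and -0.47. Among the inducible genes, Psmb8 had -0.08, above Psmb9 and Psmb10 with -0.49 and -0.56. The standard genes Psmb5, Psmb6 and Psmb7 had -0.25, -0.47 and -0.60. The activators had a median of -0.01.

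Beyond 2-fold lay 2 of the 46 members (4.35%), against 9.998% of protein-coding genes. These were Psma2, with a log2 of -1.04, and Psmd9, with 4.06, 1.77 and 1.72 TPM and a log2 of -1.001. The values of Psmd9 in libraries 2 and 3 lay close together, and library 1 was the one apart. Of its library 1 level, 2.03 TPM came from the transcript Psmd9-205, with only 36.7 expected counts, which had 0 TPM in libraries 2 and 3. In the other direction, Psme2b and Psmc1 had the highest values among members of at least 1 TPM, 0.82 and 0.58. For Psmc1, the coding Psmc1-201 had 11.8 TPM in library 3, close to its 11.1 TPM in library 1. The part of the cell markers or of fragment size in these values was not tested.

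**Figure D5:**
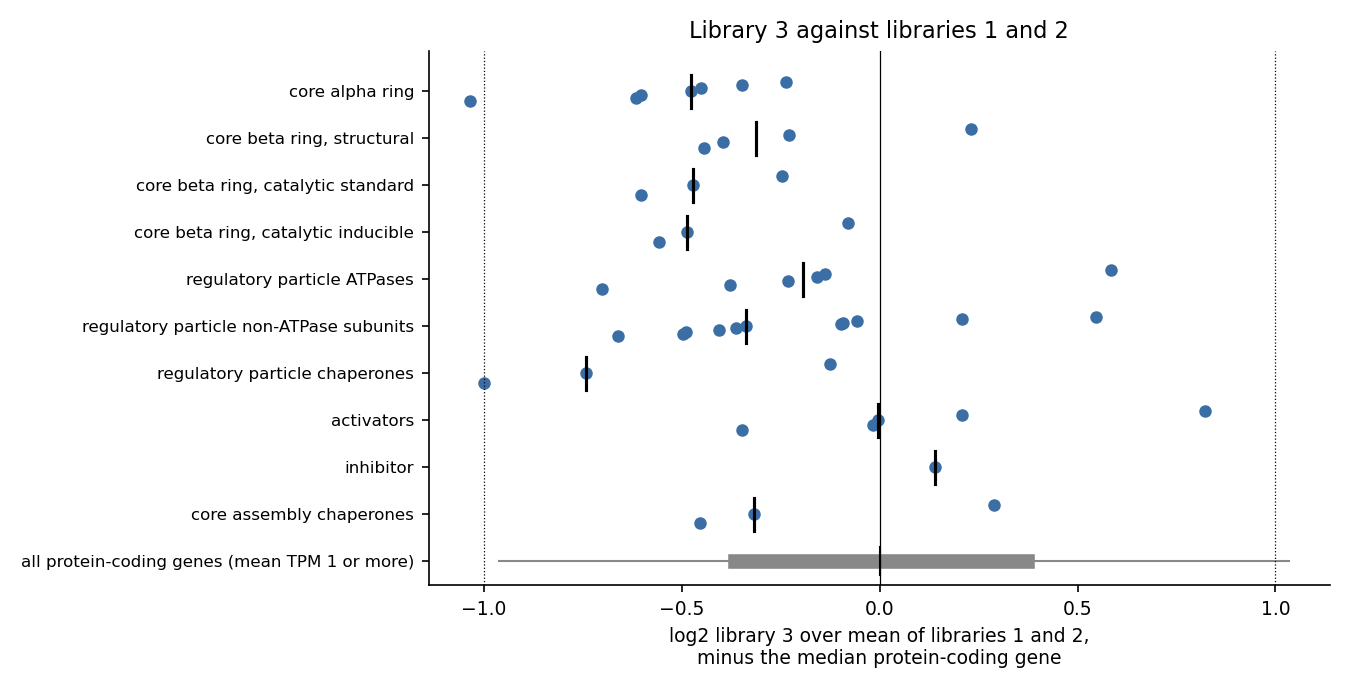
Log2 ratio of library 3 to the mean of libraries 1 and 2 for each member of at least 1 TPM by role, relative to the median protein-coding gene; black bars are medians, dotted lines mark 2-fold, and the grey bar shows the middle 50% of protein-coding genes with a line for the middle 90%. Most members lie left of 0, at a median of -0.34.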

How the data were processed

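Each library of blood monocyte RNA came with tables quantified by the authors on mm10 with GENCODE M21 and, separately, M4, per the authors' deposited notes. The deposited gene and transcript tables, made from alignments to transcripts per those notes, give expected counts (estimated reads) and TPM, scaled by the authors over all rows; effective length, in bases, is the authors' own. Kallisto-format tables, made from the reads per the same notes, give deposited estimated counts and TPM per transcript. Which programs were run, and whether strand was used, is not given in the sources. Members were chosen by symbol, and members, lists and tests were chosen with earlier results of these data known.

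The M21 gene tables were used. Expected counts were rounded and fitted with edgeR 4.0.16 (intercept only) on all genes whose counts sum to at least 10; offsets were the count that 1 or 10 TPM stands for. Rows that name no gene (at most 0.000571% of counts) were left out. Pairs were compared as log2(TPM + 0.1) within libraries. The fit was tested on simulated data. Values were given library by library for the catalytic and activator genes, the highest and lowest gene of each role, genes beyond 2-fold in library 3, and the highest 3 and lowest of other lists; means are given for further genes. Some genes that this rule names are not reported here. Alternatives used DESeq2 1.42.0 and limma 3.58.1, other scalings and tables, and fewer libraries. Near-copies were searched with BLAST 2.17.0. Counting intervals exclude PCR duplication.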

Additional observations from a re-analysis of the deposited data

Results flagged for a closer look

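Psmb11, the thymus subunit, had a count of 0 in all 3 libraries of the gene tables. It had a signal in the kallisto-format tables, which served above only as a second quantification. There it had 0.329, 0.266 and 0.36 TPM in libraries 1, 2 and 3, from 116, 102 and 76.9 estimated counts, while the limit that a count of 0 allows, 3 counts in the same table, is at most 0.014 TPM. That limit only sets a count above 0 apart from 0, and the series has no control samples to set the lowest library, at 0.266 TPM, against. The cause was not tested.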

How the results depend on the processing

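No paired analysis was possible because the series holds 1 group, so that no samples pair across groups; genes were compared within libraries. Members above 1 TPM numbered 41 to 47 under every alternative run, and members above 10 TPM 16 to 31 (16 to 25 without 1 library, the fewest without library 1), except with TPM rescaled over protein-coding genes, where 45 members and 39 of the other genes were above 10 TPM; those other genes numbered 18 with all rows. That scale raises every level about 10-fold by construction, and 12 members below 10 TPM changed side: Psmb5 (2.06), Psmd10 (2.06), Psmd11 (2.61), Psmd3 (2.01), Psmd5 (1.21), Psmd7 (2.32), Psmd9 (1.25), Psme2b (2.20), Psme4 (2.67), Psmf1 (0.084), Psmg1 (1.20) and Psmg2 (1.14), in log2 over 10 TPM. The kallisto-format tables moved 3 across: Psmd11 (0.65), Psme2b (0.028) and Psme4 (0.77), and ended the calls of Psmb5, Psmd3, Psmd7 and Psmd10 below 10 TPM. Limma and the kallisto-format tables each placed 1 member below 1 TPM. No pair changed direction under the alternatives run. Psmb8 minus Psmb5 was 3.02 in M4 tables, 2.35 with coding transcripts alone and 2.67 with coding transcripts of the kallisto-format tables, against 3.35. Psmb10 minus Psmb7 was -1.64, -2.29 and -1.85 in the same order, against -0.78. Psme1 minus Psme3 was 1.82 and Psme2 minus Psme3 1.57 in the kallisto-format tables, and the second was 2.47 with their coding transcripts alone. The causes were not tested. Without 1 library, the differences ranged from 3.22 to 3.52 for Psmb8 minus Psmb5, from -0.67 to -0.26 for Psmb9 minus Psmb6, from -0.90 to -0.65 for Psmb10 minus Psmb7, from 2.13 to 2.60 for Psme1 minus Psme3 and from 2.08 to 2.29 for Psme2 minus Psme3. Depth sets the limit for a count of 0, at most 0.0178 TPM for Psmb11.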
